A study of Bos taurus with 12 samples.

Results

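The genes described here make, degrade and sense prostaglandins in the corpus luteum of the cow. They are PTGFR, PTGS1, PTGS2, PLA2G4A, PTGES, PTGIS and HPGD, and their probes were found by name. A probe was taken when the gene name, systematic name or description in the array files gave one of these symbols, an older symbol, the full name of the gene or its gene number. This found 7 of the 6704 genes that a symbol could be given for, with 10 of the 15208 probes other than controls. Of them, 5 carried the symbol itself, 3 were matched by the full name, 1 by an older symbol (HPGD, printed as PGDH) and 1 by a gene number (PLA2G4A, printed as LOC525072). PTGS1, PTGS2 and PLA2G4A had a pair of probes each, and every probe was kept apart. The filter on low signal was passed by 8 of the 10 probes; the others were a PTGS2 probe and a PLA2G4A probe.

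The animals were Japanese Black cows, with 4 in each of 3 groups. NP15 was day 15 of the estrous cycle, P15 was day 15 of gestation and P18 was day 18 of gestation, where insemination was day 1. The labels name no treatment or genotype, and the whole gland tissue was taken 10 to 30 min after death. There was no day 18 group of cycling cows, so the P18 comparisons differ from NP15 in day as well as in pregnancy.

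Phospholipase A2, encoded by PLA2G4A, frees arachidonic acid from membranes, and the cyclooxygenases PTGS1 and PTGS2 turn it into prostaglandin H2. Terminal synthases then make single prostaglandins, PTGES prostaglandin E2 and PTGIS prostacyclin, while HPGD inactivates prostaglandins by oxidation. In the cow, prostaglandin F2 alpha from the uterus ends the life of the corpus luteum by binding PTGFR, a receptor that is abundant on steroid-producing luteal cells, and in early pregnancy this regression does not take place.

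Each probe is a 60-base oligonucleotide, and the first 30 bases are given in the order of the file for the probes that the results turn on. They are shown because the paired probes of one gene gave different readings: they share no run of bases longer than 7 for PTGS1, 5 for PTGS2 and 5 for PLA2G4A, so they were designed on different sequence. The probes were not aligned to bovine transcripts here, and 5 of the 10 were matched by a name other than the printed symbol, so where a pair disagrees a probe may not read the transcript of the named gene.
PTGFR ABR16: cttccaaagcctgtactaccaatgtcaagg
HPGD ABR9794: aatttatggagaagtctttgtactggtggc
PLA2G4A A_73_101575: gaactagaaaatattacagcaaagcatatt
PLA2G4A ABR7086: tgtaaggatatacttagctacattttcagt
PTGS2 ABR78: tgttaaatatctgaatgactgaatctggga
PTGS2 ABR7087: tttgcaagttttcaggtaaacctcagctca
PTGS1 ABR1446: atcctcatcggggagaccatcaagattgtg
PTGS1 ABR7088: agagctctatccccatccaggtcttgactc

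Values are log2 of the processed signal minus the 75th percentile of the array, so 0 is a bright probe and -8 lies near the lower limit. Between 79.6% and 85.6% of probes were well above background on the NP15 arrays, 75.3% to 80.5% on the P15 arrays and 67.5% to 72.6% on the P18 arrays. The lowest value well above background was also higher on P18, -6.08 to -5.36, against -8.09 to -7.34 on NP15 and -7.56 to -6.74 on P15. A dim probe therefore reached the lower limit sooner on P18 arrays. The NP15 and P15 arrays lay on 1 slide, in different rows of it, and the P18 arrays alone on another slide with its own scan. In the P18 comparisons slide and group cannot be told apart, and in P15 against NP15 the row on the slide and the group cannot be told apart. In whole tissue, fewer cells of a type and less RNA per cell cannot be told apart either.

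At day 15 no prostaglandin gene was called different between pregnant and cycling cows, and at day 18 of gestation the receptor and part of the enzymes were. PTGFR was higher at P18 than in both day 15 groups, while 1 probe each of PTGS2 and PLA2G4A, and HPGD, were called lower. These PTGS2 and PLA2G4A probes passed the filter only through the day 15 groups, where they read higher. Such a selection favours a lower call in P18, and neither probe kept its calls with normexp background correction. The lower calls depended more on the processing: in P18 against NP15 they numbered 4, but 2 with median centring and 0 with normexp background correction. In P15 against NP15, 0 of the 8 tested probes were called by limma at an adjusted p under 0.05, where 0.976% of all tested probes were called, 0.397% higher and 0.579% lower. At an unadjusted p under 0.05 it was also 0 of 8, against 8.82% of all probes, and for 0 of the 8 were the groups free of overlap, against 6.54%. In P18 against NP15, 1 probe was higher and 4 were lower, against 29.9% of all probes called, 11.2% higher and 18.7% lower. Of those 4, PTGS1 ABR1446 passed the filter only through NP15, where it was highest. In P18 against P15, 1 was higher and 3 were lower, against 29.0% of all probes called, 13.5% higher and 15.6% lower. Both P18 comparisons share the P18 arrays and are not independent of each other. The median difference of the 8 probes was -0.14 in P15 against NP15, -0.93 in P18 against NP15 and -0.48 in P18 against P15, and that of all tested probes was -0.06, -0.06 and -0.03. PTGS2 ABR78, PLA2G4A A_73_101575 and PTGS1 ABR1446 were well above background on no P18 array. Over all tested probes of that kind the median was -0.60 in P18 against NP15 and -0.42 in P18 against P15. Over those well above background on all 12 arrays it was -0.02 and -0.01.

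**Figure D1:**
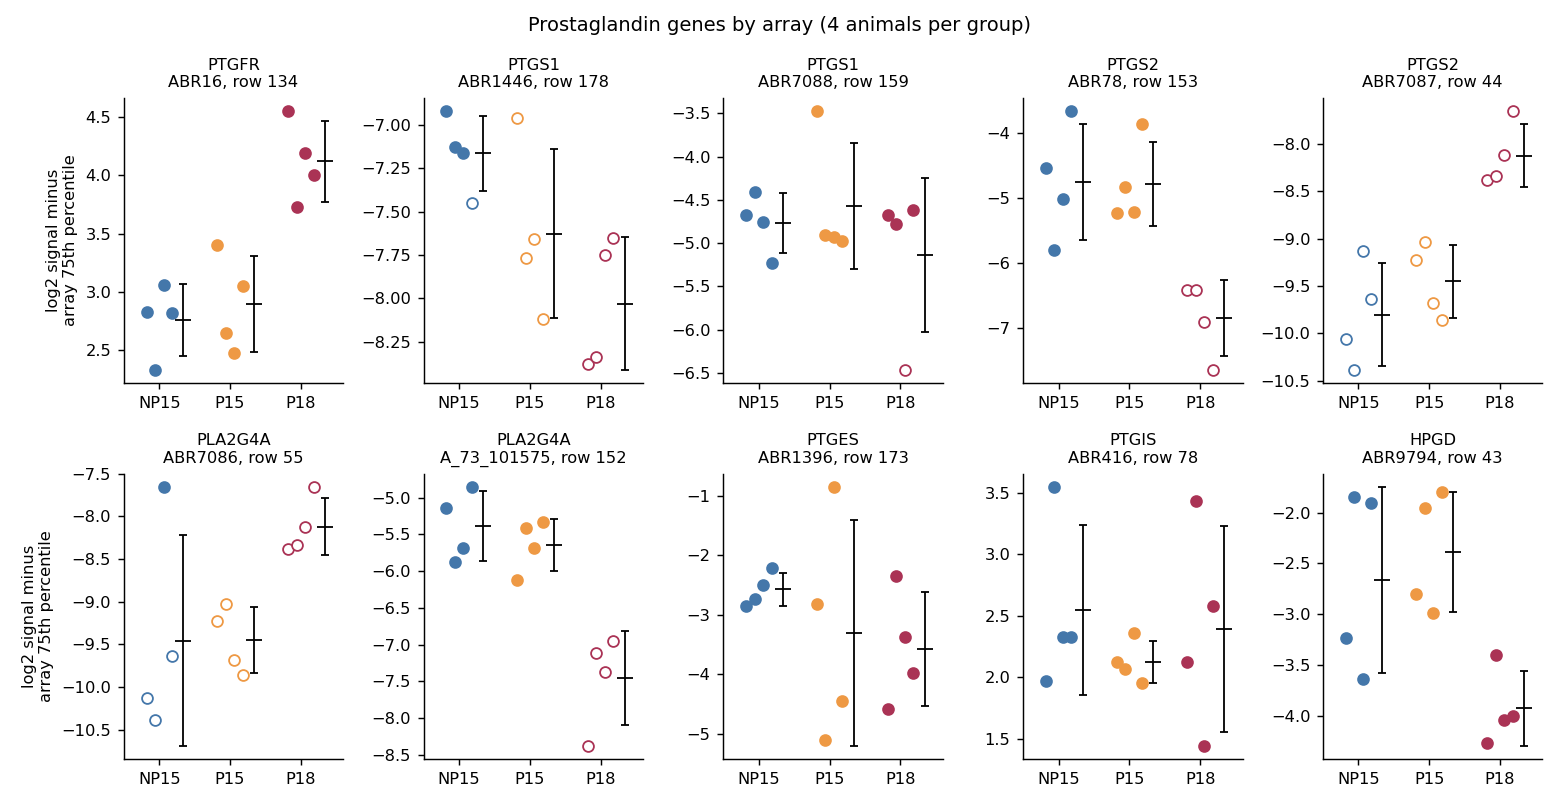
Value of each of the 10 prostaglandin probes on each array (log2 signal minus the array's 75th percentile, y axes differ), with NP15, P15 and P18 side by side. Filled points are well above background and open points are not, and bars show mean ± SD of 4 animals. The 4 P18 values of PTGFR lie above all 8 of the others, and the PTGS2 probe ABR78 and the PLA2G4A probe A_73_101575 have open points only in P18.

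PTGFR is the receptor for prostaglandin F2 alpha and couples to Gq proteins. Its values were 2.83, 2.33, 3.06 and 2.82 on the NP15 arrays, 3.40, 2.65, 2.48 and 3.05 on P15, and 4.55, 3.73, 4.19 and 4.00 on P18. The lowest P18 animal was above the highest animal of either day 15 group, and the day 15 groups overlapped. The probe was well above background on all 12 arrays and saturated on 0. Before scaling, the signal spanned 20200 to 28000 units on NP15 arrays, 20500 to 28000 on P15 arrays and 47400 to 83100 on P18 arrays.

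PTGFR averaged 2.76 ± 0.31 (SD, n = 4) for NP15, 2.90 ± 0.41 for P15 and 4.12 ± 0.34 for P18. P18 was 2.56-fold higher than NP15 (log2 difference 1.36, SE 0.24, limma adjusted p = 0.00164; 95% interval of the fold 1.78 to 3.69). Against P15 it was 2.33-fold higher (1.22, SE 0.24, limma adjusted p = 0.00319; interval 1.62 to 3.36). P15 and NP15 differed by 0.14 with a 95% interval of -0.39 to 0.66 (limma adjusted p = 0.899), so a difference of the size seen at P18 lay outside that interval. Groups did not overlap for 30.9% of all probes in P18 against NP15 and for 35.2% in P18 against P15. The P18 differences of PTGFR were called under all 13 alternative settings run and with each of the 12 arrays left out. Of 7 markers of steroidogenic luteal cells, 0 were higher and 2 lower in P18 against NP15, and 1 was higher and 1 lower against P15. Over all tested probes, 11.2% were higher and 18.7% lower in the first comparison and 13.5% and 15.6% in the second. The part of these cells in the PTGFR result was not tested.

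**Figure D2:**
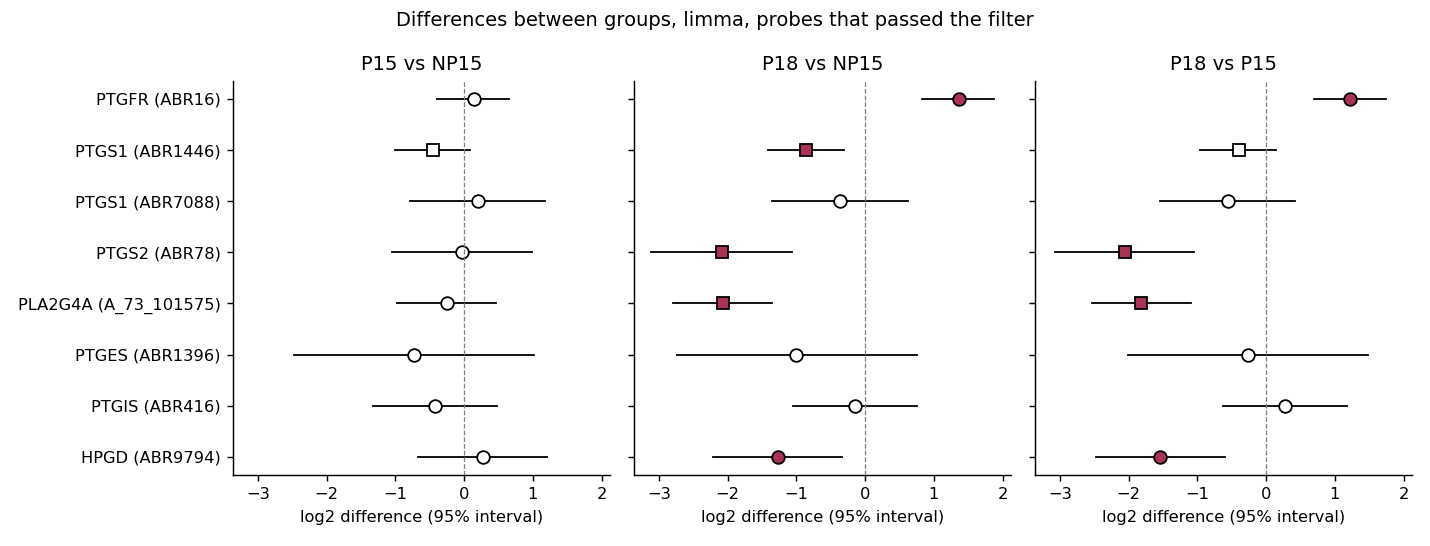
Log2 differences between groups with 95% intervals for the 8 prostaglandin probes that passed the filter, 1 panel per comparison. Filled symbols are called at a limma adjusted p under 0.05, and squares have a group with no array well above background; only PTGFR is filled to the right of 0, at 1.36 and 1.22.

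PLA2G4A, the cytosolic phospholipase that supplies arachidonic acid, was at or near the lower limit in P18. Its probe A_73_101575 read -5.14, -5.87, -5.69 and -4.85 in NP15, -6.12, -5.42, -5.69 and -5.33 in P15, and -8.38, -7.12, -7.38 and -6.95 in P18. All 8 day 15 arrays were well above background and 0 of the 4 P18 arrays were, and P18 did not overlap with either day 15 group. The P18 value of -8.38 (replicate 1) was one that the scanner software put in place of a signal it could not measure. P18 was at least 1.36-fold lower than NP15 (means -7.46, with that substitute, and -5.39, log2 difference -2.07, SE 0.33, limma adjusted p = 0.000863). Against P15 it was at least 1.14-fold lower (measured mean -5.64, log2 difference -1.82, SE 0.33, limma adjusted p = 0.00198). Such a bound sets the mean of the brighter group against the lowest signal well above background on each dim array. It is a point estimate, here and for PTGS2 below, with no allowance for the spread between animals. The adjusted p beside a bound belongs to the difference of the group means, substitutes included, and does not test the bound. P15 and NP15 differed by -0.25, with an interval of -0.97 to 0.46. With the background corrected by normexp, the P18 differences were -0.43 (adjusted p = 0.0855) and -0.31 (adjusted p = 0.222), and the calls were lost.

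The other PLA2G4A probe, ABR7086, was well above background on 1 of 12 arrays, the NP15 array of replicate 3, at -7.66. Its values in P18, -8.38, -8.34, -8.12 and -7.65, were those that the scanner software put in place of signals it could not measure. PTGS2 probe ABR7087 held the same 4 values. On the P15 arrays both probes held such substitutes as well, at -9.86 to -9.03. Neither passed the filter and no fold is given; fitted without the filter, ABR7087 came out higher in P18 than in NP15 by 1.68 (limma adjusted p = 0.000913), although no array of either group measured it above background.

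PTGS2 is the inducible cyclooxygenase. Its probe ABR78 read -4.54, -5.80, -5.02 and -3.66 in NP15, -5.23, -4.83, -5.21 and -3.86 in P15, and -6.42, -6.41, -6.91 and -7.65 in P18. The day 15 groups overlapped and all their arrays were well above background, whereas no P18 array was, and all P18 values were below the day 15 ones. The P18 value of -7.65 (replicate 4) was one that the scanner software put in place of a signal it could not measure. P18 was at least 2.10-fold lower than NP15 (means -6.85, with that substitute, and -4.76, log2 difference -2.09, SE 0.46, limma adjusted p = 0.00612). Against P15 it was at least 2.06-fold lower (measured mean -4.78, log2 difference -2.06, SE 0.46, limma adjusted p = 0.0068). P15 and NP15 differed by -0.03, with an interval of -1.05 to 0.99. With normexp the P18 differences were -0.64 (adjusted p = 0.122) and -0.61 (adjusted p = 0.144).

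PTGS1 is the constitutive cyclooxygenase, and its probes did not give the same result. ABR7088, the brighter, read -4.67, -4.41, -4.76 and -5.23 in NP15, -3.47, -4.91, -4.93 and -4.97 in P15, and -4.67, -4.78, -6.47 and -4.62 in P18. The groups overlapped, with 1 high P15 array and 1 low P18 array, and only that P18 array was not well above background. No comparison was called: the difference was -0.37 in P18 against NP15 (interval -1.35 to 0.62), -0.56 in P18 against P15 (-1.55 to 0.42) and 0.20 in P15 against NP15 (-0.79 to 1.18). ABR1446 was close to background throughout, from -7.45 to -6.92 on NP15 arrays, -8.12 to -6.96 on P15 arrays and -8.38 to -7.65 on P18 arrays. It was well above background on 3 arrays of NP15 and 0 of the other groups, so it passed the filter only through NP15, where it read highest. On 3 P18 arrays its value was one that the scanner software put in place of a signal it could not measure. Such a selection favours a lower call in P18, and the call is given as no support for a change. The P18 value of ABR1446 was called lower than NP15 (-0.86, SE 0.25, limma adjusted p = 0.024), with no fold, since the bound was under 1. With normexp that difference was 0.13 (adjusted p = 0.555). The call was also lost with median centring (adjusted p = 0.0677), with the local position adjustment (0.0598) and without NP15 replicate 1 (0.0644), NP15 replicate 2 (0.0517), P18 replicate 1 (0.0658) or P18 replicate 2 (0.0634).

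Beside these lower calls stands the lower limit of the P18 arrays. Among the tested probes that no P18 array measured well above background, 36.6% were called lower and 4.18% higher in P18 against NP15, and 29.8% lower and 10.1% higher against P15. Among those measured on all 12 arrays, 16.5% were lower and 11.2% higher against NP15, and 13.7% lower and 13.0% higher against P15. PLA2G4A A_73_101575, PTGS2 ABR78 and PTGS1 ABR1446 belong to the first kind, and PTGFR, HPGD, PTGES and PTGIS to the second. Those of the first kind passed the filter only through day 15 arrays, and PTGS1 ABR1446 through NP15 alone. Such a selection favours a lower call in P18, so their lower calls by themselves are no support for a change. The part of the lower limit in the size of these changes was not tested beyond the bounds given.

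PTGES, the microsomal synthase of prostaglandin E2, varied most between animals. It read -2.85, -2.73, -2.50 and -2.21 in NP15, -2.81, -5.11, -0.84 and -4.45 in P15, and -4.59, -2.34, -3.38 and -3.98 in P18. The NP15 cows lay close together, while the P15 cows ranged on both sides of them, from a processed signal of 109 to one of 2060. The spread (SD) was 0.28 for NP15, 1.91 for P15 and 0.96 for P18, and for P15 99.6% of the tested probes had a smaller SD. No comparison was called, with differences of -0.73 in P15 against NP15 (interval -2.48 to 1.02), -1.0 in P18 against NP15 (-2.74 to 0.75; limma adjusted p = 0.375) and -0.27 in P18 against P15 (-2.01 to 1.48). All these intervals hold a fall of the size of PTGFR's P18 differences, but only that of P18 against P15 holds a rise of that size.

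PTGIS, prostacyclin synthase, was bright in every animal. It read 1.97, 3.55, 2.33 and 2.33 in NP15, 2.12, 2.07, 2.36 and 1.95 in P15, and 2.12, 3.43, 1.44 and 2.58 in P18. The groups overlapped, with the highest values in 1 NP15 and 1 P18 cow. No comparison was called: the difference was -0.42 in P15 against NP15 (interval -1.32 to 0.48), -0.15 in P18 against NP15 (-1.05 to 0.75) and 0.27 in P18 against P15 (-0.63 to 1.17).

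HPGD, which breaks down prostaglandins E2 and F2 alpha, was lower in P18 than in P15. It read -3.24, -1.85, -3.64 and -1.91 in NP15, -2.80, -1.96, -2.99 and -1.80 in P15, and -4.27, -3.40, -4.04 and -4.00 in P18, well above background on all 12 arrays. Every P18 value was below every P15 value, but the highest P18 cow, at -3.40, was above the lowest NP15 cow, at -3.64. P18 was 2.91-fold lower than P15 (log2 difference -1.54, SE 0.43, limma adjusted p = 0.0196; interval of the fold 1.51 to 5.59). That call held under all 13 alternative settings, and was lost without P15 replicate 2 (adjusted p = 0.0556), P15 replicate 4 (0.0548) or P18 replicate 1 (0.0506).

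Against NP15, HPGD was 2.41-fold lower in P18 (log2 difference -1.27, SE 0.43, limma adjusted p = 0.045; interval of the fold 1.25 to 4.63). This call was near the threshold: it was kept in 6 of 13 alternative settings and with 5 of 12 arrays left out, where the adjusted p reached 0.12 at most. It was lost with quantile normalization, cyclic loess, median centring, normexp, the local position adjustment, array weights and the fit of only the 2 groups, and without NP15 replicates 2 or 4, P15 replicates 1 or 2, or P18 replicates 1, 3 or 4. P15 and NP15 differed by 0.27, with an interval of -0.67 to 1.21.

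Some markers of other cell types were called in the P18 comparisons. Over all tested probes, 18.7% were lower and 11.2% higher in P18 against NP15, and 15.6% and 13.5% against P15. With so few genes in each list, no change of a cell type is read from the counts. Of 7 endothelial genes, 3 were lower in P18 than in each day 15 group, and their summed signal ran from 4.35 to 5.88 for NP15, 4.99 to 5.44 for P15 and 3.80 to 4.69 for P18, in units of the array's 75th percentile. Of 7 genes of fibroblasts, pericytes and smooth muscle, 4 were lower in P18 than in each day 15 group, with sums of 74.8 to 87.4, 73.3 to 89.9 and 55.5 to 68.5. Of 6 macrophage and myeloid genes, 1 was higher in P18 than in NP15 and 2 than in P15, with sums of 1.24 to 1.96, 1.08 to 2.57 and 1.73 to 3.74. All 7 luteal steroidogenic genes were well above background on all 12 arrays, with sums of 490.0 to 589.0, 362.0 to 518.0 and 378.0 to 461.0. In P15 against NP15, 1 of these 7 was called lower, where 0.579% of all tested probes were called lower. Of the 4 trophoblast genes with a probe, PAG2 and TKDP1 were well above background on 0 of the 12 arrays, IFNT2 on 4 (2 of NP15, 1 of P15 and 1 of P18) and CSH2 on 1 of P18, and none passed the filter. Of the 4 red cell and platelet genes with a probe, HBB was well above background on 0 arrays, and 1 of the 3 tested was higher in each P18 comparison, with summed signals of 0.476 to 0.564, 0.462 to 0.513 and 0.574 to 0.786. The part of these cell types in the lower HPGD, PTGS2 and PLA2G4A or the higher PTGFR was not tested.

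The position of a probe on the array also moved with the comparison of the day 15 groups. Of the 123 probes called in P15 against NP15, 50 lay in the first 24 of 192 rows and 67 in the last 24, and 6 in the rows between. The median difference was 0.08, -0.25 and -0.05 in these zones. PTGES in row 173 and PTGS1 ABR1446 in row 178 lay in the last zone, where the median difference of the rows within 3 of them was -0.20 for both. PTGFR lay in row 134 and HPGD in row 43, where that median was -0.07 and -0.04. In P18 against NP15 it was -0.06 around PTGFR and -0.08 around HPGD, against their own differences of 1.36 and -1.27. The called PLA2G4A and PTGS2 probes lay in rows 152 and 153, where it was -0.13.

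**Figure D3:**
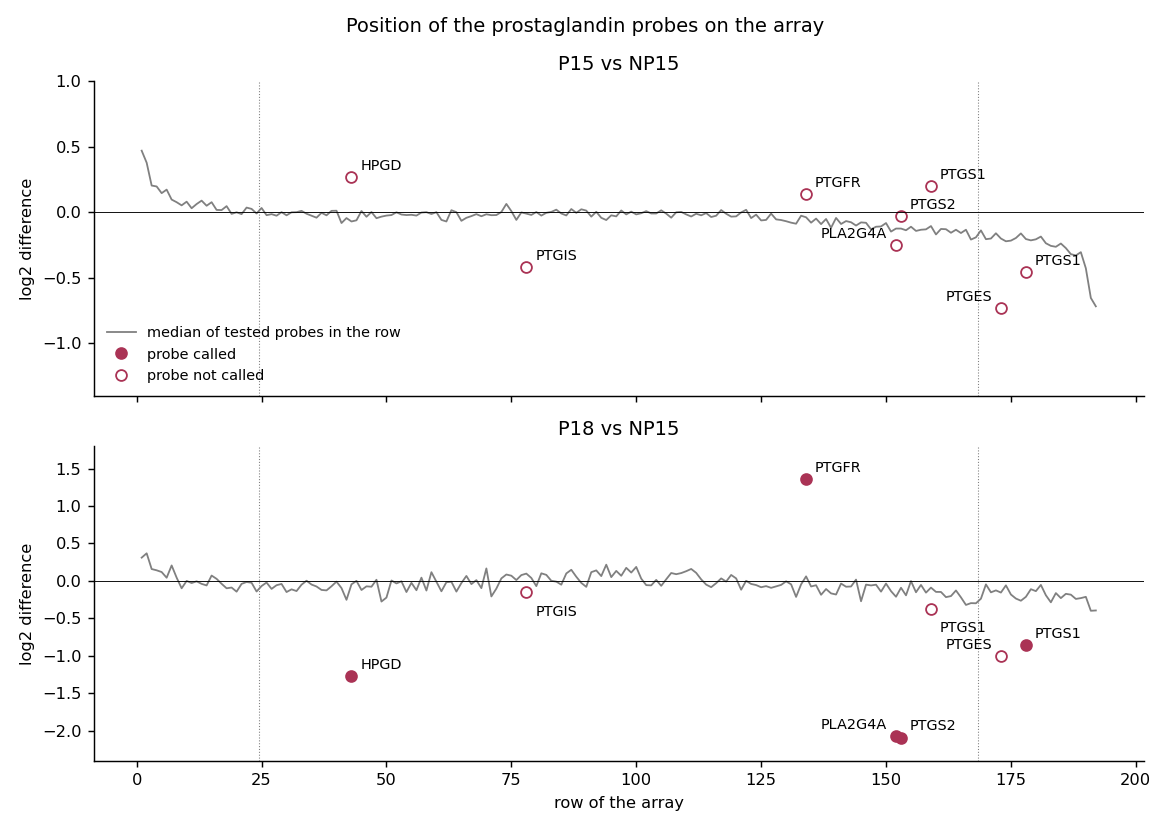
Log2 difference of the 8 tested prostaglandin probes (circles, filled where called) against their row on the array, with the median of all tested probes in each row as a line and the 24 outer rows of each side marked by dotted lines. In P15 against NP15 the line lies above 0 in the first rows and below 0 in the last, and PTGFR in P18 against NP15 stands at 1.36 above a local median of -0.06.

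Other genes of the pathway were described from a list of 85, of which 54 had 56 probes and 50 probes were tested. In P15 against NP15, 0 were higher and 1 was lower, against 0.976% of all probes called. The one was PLA2G15, a lysosomal phospholipase, at -6.20, -6.16, -5.82 and -5.67 in NP15 and -6.88, -7.27, -7.27 and -7.13 in P15 (log2 difference -1.17, SE 0.19, limma adjusted p = 0.0132). This probe lies in row 192, the last of the array. With its position adjusted for, the difference was -0.61 (adjusted p = 0.383), and with normexp it was -0.33 (adjusted p = 0.647).

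In P18 against NP15, 3 of the 50 pathway probes were higher and 6 were lower, against 29.9% of all probes called. In P18 against P15, 3 were higher and 5 were lower, against 29.0%. The median difference of the 50 probes was -0.02 in P15 against NP15, -0.11 in P18 against NP15 and -0.18 in P18 against P15. The share of pathway probes called was thus below that of all probes in both P18 comparisons.

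Among enzymes, PTGES3, a cytosolic prostaglandin E synthase that is also the HSP90 co-chaperone p23, was 0.68, 0.20, 0.24 and 0.26 in NP15 and -0.19, -0.32, -0.48 and -0.22 in P18. It was lower in P18 than in NP15 (-0.65, SE 0.12, limma adjusted p = 0.00244) and than in P15 (-0.53, SE 0.12, limma adjusted p = 0.00767). The second call was lost with median centring (-0.31, adjusted p = 0.0591). AKR1B1, an aldo-keto reductase that can form prostaglandin F2 alpha, averaged 2.26 ± 0.29 (SD, n = 4) for NP15, 2.29 ± 0.15 for P15 and 2.14 ± 0.19 for P18 and was not called. PTGR3, a prostaglandin reductase, was higher in P18 than in NP15 (0.73, SE 0.16, limma adjusted p = 0.00496) and than in P15 (0.84, SE 0.16, limma adjusted p = 0.00241). Its P18 values, -1.37 to -1.06, did not overlap with -2.14 to -1.57 in NP15 or -2.24 to -1.77 in P15. SLCO2A1, the transporter that takes prostaglandins into cells, averaged -0.96 ± 0.15 for NP15, -0.66 ± 0.21 for P15 and -1.15 ± 0.42 for P18 and was not called.

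Phospholipases other than PLA2G4A did not share 1 direction. PLA2G15 was higher in P18 than in P15 (1.55, SE 0.19, limma adjusted p = 0.000189), but was not called against NP15 (0.37, adjusted p = 0.154). Its group mean was lowest in P15, at -7.14 against -5.96 in NP15 and -5.59 in P18. The difference from P15 was 1.26 with the local position adjustment and 0.70 with normexp, and it was called under all 12 alternative settings. One probe of PLA2G2D1, ABR434, was higher in P18 than in NP15 (1.81, SE 0.59, limma adjusted p = 0.0389), a call kept with 5 of 12 arrays left out. It was lost without any 1 of the NP15 replicates (adjusted p from 0.0518 to 0.0804) or without P18 replicate 1 (0.0565), 3 (0.066) or 4 (0.0978). The other probe, A_73_105146, printed as PLA2G2D3, was lower (-0.76, SE 0.13, limma adjusted p = 0.00149), and also against P15 (-0.44, adjusted p = 0.0258). The last call was lost in 4 of 12 alternative settings and without P15 replicate 1 (0.0718), 2 (0.0645) or 3 (0.0666) or P18 replicate 2 (0.0614) or 3 (0.0632). These secreted phospholipases form a family of similar genes, and which copy each probe reads is uncertain.

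Among receptors, PTGER1 for prostaglandin E2 was -4.24, -4.64, -5.15 and -3.96 in NP15, -4.49, -3.85, -4.30 and -5.02 in P15 and -3.17, -3.85, -3.63 and -3.49 in P18. It was higher in P18 than in NP15 (0.96, SE 0.29, limma adjusted p = 0.028) and than in P15 (0.88, SE 0.29, limma adjusted p = 0.0407). Those calls held with 7 and 4 of 12 arrays left out, and the adjusted p reached 0.074 and 0.105 without the others. The first was lost without NP15 replicates 2 or 3 or P18 replicates 1, 3 or 4, and the second without NP15 replicates 1 or 2, P15 replicates 1, 3 or 4 or P18 replicates 1, 3 or 4. PTGER2 and PTGER4, the prostaglandin E2 receptors that raise cyclic AMP, were not called, with differences of -0.10 and 0.18 in P18 against NP15. PTGER2 was well above background on 4 NP15 arrays but on 1 P18 array (P18 mean -6.14), so a lower P18 value could not be measured. PTGIR, the prostacyclin receptor, did not pass the filter: it was well above background on 2 arrays of NP15, 0 of P15 and 2 of P18. Its values lay from -8.46 to -7.61 on NP15 arrays, -9.23 to -7.93 on P15 arrays and -6.42 to -5.76 on P18 arrays. OXTR, the oxytocin receptor, was above background on 0 of the 12 arrays.

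Of 9 genes that signal below PTGFR, 0 were higher in P18 against NP15 and 3 were lower, and 0 were higher and 2 lower against P15. Over all tested probes, 11.2% were higher and 18.7% lower in the first comparison and 13.5% and 15.6% in the second, and nothing particular to the 9 genes is read from these counts. GNA11, a Gq-class alpha subunit, was 1.08, 0.79, 0.87 and 0.94 in NP15, 1.12, 1.09, 1.15 and 0.97 in P15 and 0.23, -0.01, -0.26 and 0.12 in P18. The P18 cows lay below all others (-0.90 against NP15, SE 0.12, limma adjusted p = 0.000325, and -1.06 against P15, adjusted p = 0.000148). ITPR3, a calcium channel opened by inositol trisphosphate, was lower by the same measure (-0.82, SE 0.16, limma adjusted p = 0.00254, and -1.34, adjusted p = 0.000173). The third was PRKCB, a protein kinase C outside the rule for named genes and named after its value was seen (-0.76, adjusted p = 0.042). It kept its call with 4 of 12 arrays left out, and lost it without NP15 replicates 2 or 3, P15 replicates 2 or 4, or any P18 replicate (adjusted p up to 0.0947), and with median centring, the local position adjustment and the fit of only the 2 groups. The calls of GNA11 and ITPR3 held under all 13 alternative settings and with each array left out. ITPR1 and ITPR2, channels of the same kind as ITPR3, were not called and were also named after their values were seen. ITPR1 differed in the other direction, by 1.09 against NP15 (limma adjusted p = 0.0577) and 0.82 against P15 (0.143). ITPR2 differed by 0.19 in both P18 comparisons.

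Of 12 genes that prostaglandin F2 alpha is known to induce in the corpus luteum, 0 were higher in P18 in either comparison, and 1 was lower in each. Beside the same shares over all probes, 11.2% and 13.5% higher and 18.7% and 15.6% lower, counts this small are no result about the list. EDN1, the vasoconstrictor endothelin 1, was lower in P18 than in NP15 (-1.30, SE 0.40, limma adjusted p = 0.0309), where the groups overlapped and 1 P18 array was well above background. That call was lost with normexp (-0.33, adjusted p = 0.175), median centring (0.065), the local position adjustment (0.0633) and the fit of only the 2 groups (0.0752). It was also lost without NP15 replicate 2 (0.0712), 3 (0.0687) or 4 (0.0693) or P18 replicate 3 (0.0879) or 4 (0.0815). JUN, an immediate early transcription factor, was 0.87, 1.03, 0.86 and 1.16 in P15 and -0.02, 0.18, 0.30 and -1.01 in P18 (-1.12, SE 0.29, limma adjusted p = 0.0153), and it was called under all 13 alternative settings and with each array left out.

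**Figure D4:**
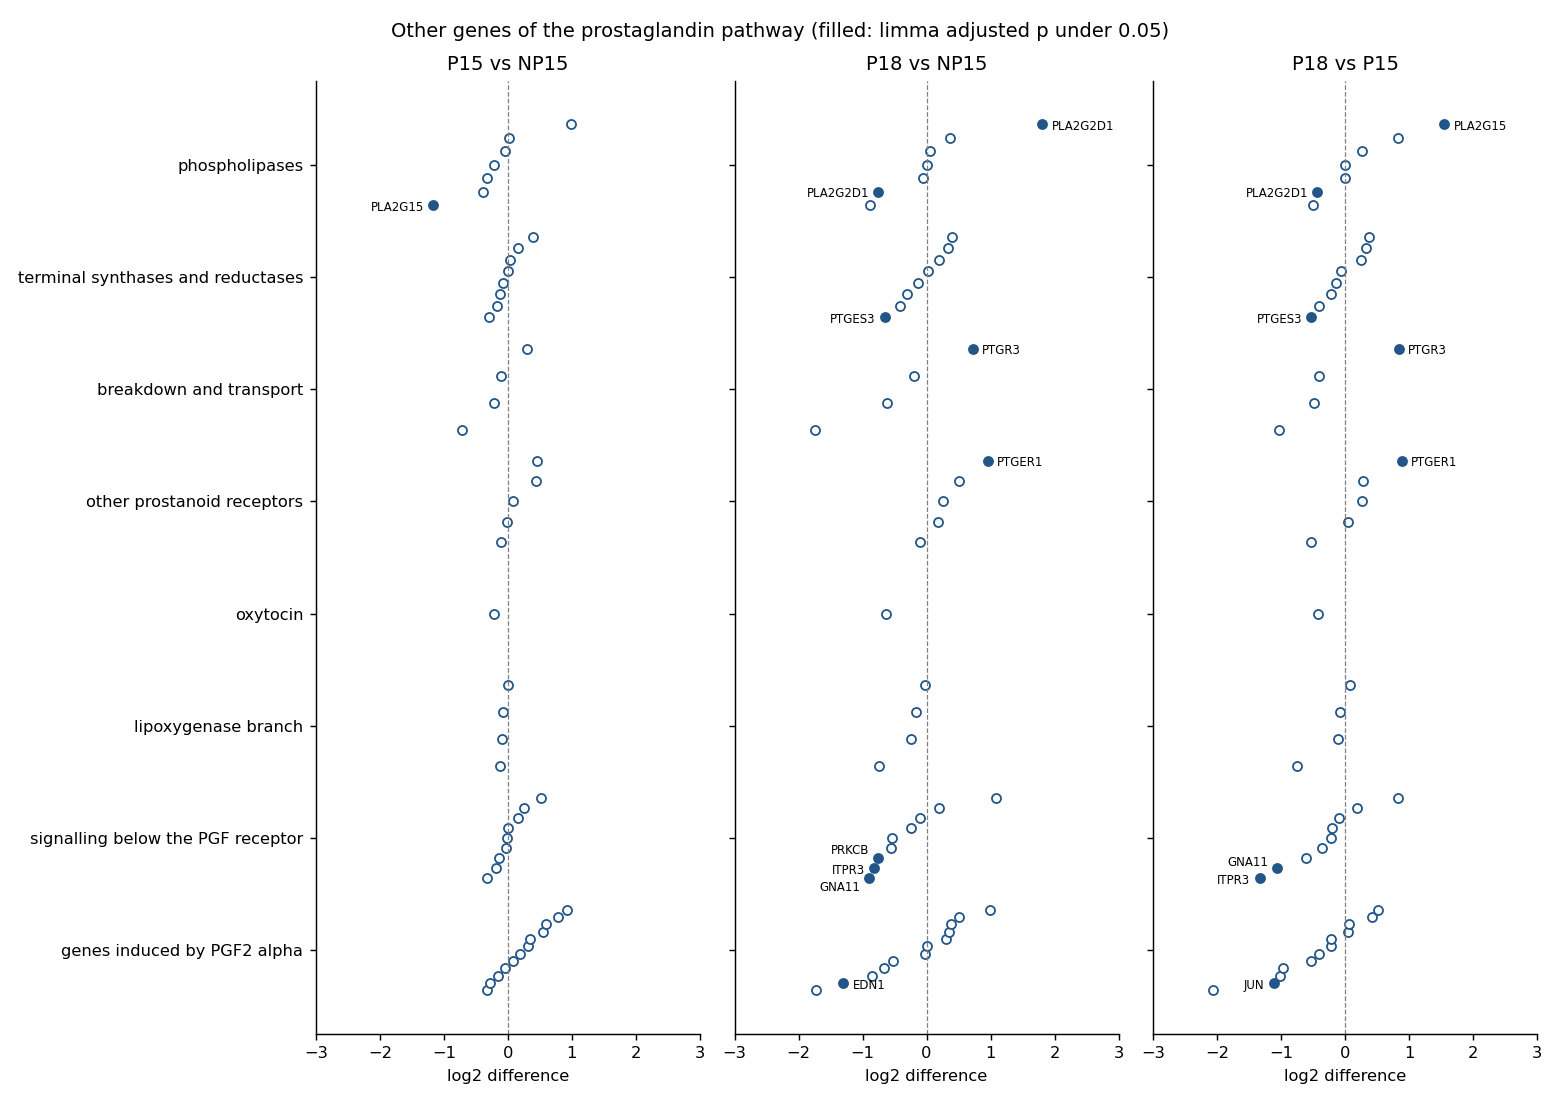
Log2 differences of the 50 tested pathway probes by role, 1 panel per comparison, with probes called by limma (adjusted p under 0.05) filled and named. In P15 against NP15 only PLA2G15 is filled, at -1.17, and GNA11 and ITPR3 lie left of 0 in both P18 panels.

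The probes whose pattern over the 12 arrays was most like that of PTGFR were found by the root mean square difference between profiles centred on their own means, over 5066 named probes measured on all arrays. PTGFR itself deviated from its mean by 0.69. The closest were PAWR at a difference of 0.24, COX17 at 0.25, SLC18A2 at 0.30 and LAPTM4A at 0.30, with means of -4.15, -5.65, -4.60 and 3.63 in NP15 against -3.16, -4.53, -3.68 and 4.67 in P18. HPGD deviated by 0.88, and the closest to it were TBX3 at 0.40, CDCA7 at 0.44, MID1IP1 at 0.47 and CDH5, a vascular endothelial cadherin and 1 of the endothelial markers above, at 0.48. These profiles share the arrays and the 2 slides, and likeness is given as a description with no test.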

How the data were processed

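The 12 scanner files hold spot intensities, which the authors extracted with Agilent software, Feature Extraction (9.5 per the submitters' processing notes, 9.5.1.1 per the file headers), with background and spatial trend removed in the processed signal, per the file headers. The authors' deposited value table holds log2 of that signal minus a constant of each array, found by setting it against the scanner files (largest stray 1.79e-06); it served as an alternative. The 75th percentile over 15208 probes, without 536 control spots, was taken off each array's log2 processed signal; marked spots were set to missing. Probes well above background on at least 3 of 4 arrays of a group (12605) were fitted with limma 3.58.1 in R 4.3.3 on group means of all 12 arrays, two-sided, with Benjamini-Hochberg adjustment over all of them and a threshold of 0.05. The fit was tested on simulated data. Names came from ARS-UCD2.0 RefSeq gene tables, with 7029 probes given a symbol. Each group had 4 animals, a number that limits the precision. The members and lists were chosen with earlier results of these data known. Pathway probes were named up to 8 per comparison by smallest p among those called, with AKR1B1, SLCO2A1, PTGER2, PTGER4, PTGIR and OXTR always. Likeness was measured for member probes on all 12 arrays whose group means span at least 1 log2 unit, naming 4 probes each. Alternatives covered scaling, background, filter, position, weights, slide and replicate block, and each array left out. Summed marker signals cover 9 lists; T and natural killer, B and plasma, and platelet genes had at most 1 call per P18 comparison, all higher, and 5 follicle genes had 0. Transcript sequences were not used here.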

Additional observations from a re-analysis of the deposited data

Results flagged for a closer look

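Among 26 member and named pathway probes in 3 groups each, 6 sets of 4 arrays had a value that stood far from the other 3 by Dixon's criterion, which flags about 1 in 20 sets by chance. The PTGS1 probe ABR7088 had a high P15 array (replicate 1, -3.47) and a low P18 array (replicate 3, -6.47). PTGER2 was high in P18 replicate 1 (-5.74) and PTGER4 in P18 replicate 4 (-0.32). PTGES3 was high in NP15 replicate 1 (0.68), and PTGR3 in NP15 replicate 2 (-1.57).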

How the results depend on the processing

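PTGFR kept its direction and its calls at P18 under every setting run. The count of called member probes in P18 against NP15 (5 of 8) was 3 with median centring, 1 with normexp, 2 of 4 with probes well above background on all 12 arrays and 3 with the local position adjustment, and 3 to 5 with 1 array left out (3 without NP15 replicate 2 or P18 replicate 1). In P18 against P15 (4 of 8) it was 2 with normexp and 2 of 4 on all 12 arrays, where fewer probes are tested. Pathway calls were 0 instead of 1 in P15 against NP15 with normexp, the all-array filter and the local position adjustment; with no filter they were 15 instead of 9 in P18 against NP15 and 13 instead of 8 in P18 against P15, and with 1 array left out the former fell to 5 (without NP15 replicate 2 or P18 replicate 3). For the rest the cause was not tested. Median centring moved the median of all probes from -0.06 to 0.18 in P18 against NP15 and from -0.03 to 0.20 in P18 against P15, and the share of calls that were higher from 37.4% to 68.2% and from 46.4% to 73.2%; with normexp it was 56.7% and 61.6%, and in the first 49.0% with the local position adjustment. In P15 against NP15 that share was 40.7%, 59.2% with normexp and 67.5% with the local position adjustment.

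Signs turned only in differences that were not called, apart from PTGS1 ABR1446 in P18 against NP15 (0.13 with normexp). In P15 against NP15, PTGS2 ABR78 was 0.12 with cyclic loess, 0.11 with the local position adjustment, 0.09 with array weights and -0.38 to 0.34 with 1 array left out; with 1 array left out PTGFR ran from -0.03 to 0.28, PTGS1 ABR7088 from -0.17 to 0.33, HPGD from -0.06 to 0.54, AKR1B1 from -0.05 to 0.15, PTGER2 from -0.09 to 0.76 and PTGER4 from -0.48 to 0.22, and PTGER4 was 0.01 with array weights. In P18 against NP15, PTGS1 ABR7088 was 0.03 with normexp and -0.54 to 0.08 with 1 array left out, PTGIS 0.09 with median centring and -0.49 to 0.19 with 1 left out, AKR1B1 0.11 and SLCO2A1 0.05 with median centring, SLCO2A1 0.05 with the local position adjustment, PTGER2 0.14, 0.21 and 0.02 with median centring, normexp and local adjustment and -0.39 to 0.05 with 1 left out, and PTGER4 -0.23 to 0.50 with 1 left out. In P18 against P15, PTGS1 ABR1446 was 0.14 with normexp, AKR1B1 0.07 with median centring, and with 1 array left out PTGES ran from -0.87 to 0.55, PTGIS from -0.08 to 0.59 and PTGER4 from -0.13 to 0.66. PTGS1 ABR1446 was called lower in P18 against P15 with quantile normalization (-1.44) and cyclic loess (-1.16).

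Same-numbered animals did not all deviate together: correlations were 0.117, 0.164, 0.097 and 0.293 in P15 against NP15, where 3 of 4 numbers correlated best with their own, a hint from the data and not from the design, and -0.039 to 0.174 in the P18 comparisons. The labels give no pairing, and the numbers were taken as names. With the replicate block, member calls were 0, 5 and 4 and pathway calls 1, 10 and 7 in P15 against NP15, P18 against NP15 and P18 against P15. PTGER1 lost its calls (adjusted p = 0.0514 and 0.0698). Slide could be a block in no P18 comparison. Signal over background limits PTGS2, PLA2G4A and PTGS1 ABR1446 in P18.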

Other observations

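Across the day 15 pregnant cows, the animal with the highest PTGES value (replicate 3, -0.84) also had the highest value of the receptor PTGER2, at -4.03 against -6.57 to -5.59 in the others. Other animals went the other way. The P15 cow with the next highest PTGES (replicate 1, -2.81) had the lowest PTGER2 of P15, -6.57. In P18 the cow with the lowest PTGES (replicate 1, -4.59) had the highest PTGER2, -5.74. These animals were singled out after their values were seen, and no test was run.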
